A study of Mus musculus with 5 samples.

Results

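The mitochondrial carrier family SLC25 was followed in pro-B cells of mice that lack *Mef2c* in their blood cells. The family was taken as every gene whose symbol starts with Slc25a, measured by a probe set with exactly 1 gene symbol. This gave 43 genes on 44 probe sets, of 17325 genes on 17623 probe sets with 1 symbol, among 23835 probe sets in all. Each gene was read from its probe set with the highest mean. The first group comprised 2 arrays of *Mef2c*-deficient pro-B cells, where both floxed *Mef2c* alleles (fl/fl) were deleted in haematopoietic cells by Vav-Cre, a Cre driven by the Vav promoter. The second group comprised 3 arrays labelled control, which per the methods came from mice with 1 or 2 floxed *Mef2c* alleles and no Cre (fl/+ or fl/fl), or mice with Vav-Cre and a single floxed allele (fl/+), and which of these each array held is not given. All mice were 9 months old, and the cells were sorted from bone marrow as B220+IgM-CD43+CD24+. The labels do not say that each array came from a different mouse, so the p-values measure the spread between these samples.

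The carriers are a family of membrane proteins encoded in the nucleus, made in the cytosol and inserted, with few exceptions, into the inner mitochondrial membrane. Each exchanges or imports a small set of solutes, such as ADP for ATP, phosphate, citrate, malate, carnitine esters, folate or iron, and so links the metabolism of the cytosol to that of the matrix. Dividing lymphocyte progenitors draw on these routes for ATP, for the carbon of lipids and for the building blocks of nucleotides and haem.

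Promoter sequence was examined for the members because many of them moved in one direction. In RefSeq on the mouse build GRCm38.p6, 33 of the 43 genes matched a promoter entry, with 42 windows of 250 bases before an annotated start. The windows of 4 members that were lower in *Mef2c*-deficient cells, picked for their roles, are shown, for the phosphate carrier *Slc25a3* (chr10:91123968-91124217, minus strand), the ADP/ATP carrier *Slc25a4* (chr8:46211063-46211312, minus strand), the oxoglutarate carrier *Slc25a11* (chr11:70647040-70647289, minus strand) and the citrate carrier *Slc25a1* (chr16:17928220-17928469, minus strand). Each runs 5′ to 3′ on the strand of the gene and ends at the base before the annotated start, and capitals mark the motif matches named after them.
Slc25a3: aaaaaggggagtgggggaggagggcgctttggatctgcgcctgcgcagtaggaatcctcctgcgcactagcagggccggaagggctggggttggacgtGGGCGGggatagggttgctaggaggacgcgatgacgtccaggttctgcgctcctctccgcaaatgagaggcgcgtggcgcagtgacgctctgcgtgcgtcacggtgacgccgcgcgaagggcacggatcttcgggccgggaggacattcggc
Slc25a4: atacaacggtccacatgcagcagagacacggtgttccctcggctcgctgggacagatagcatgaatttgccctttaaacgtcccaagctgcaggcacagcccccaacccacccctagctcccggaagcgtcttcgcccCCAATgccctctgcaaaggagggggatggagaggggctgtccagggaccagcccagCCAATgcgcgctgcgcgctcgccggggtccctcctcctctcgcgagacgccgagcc
Slc25a11: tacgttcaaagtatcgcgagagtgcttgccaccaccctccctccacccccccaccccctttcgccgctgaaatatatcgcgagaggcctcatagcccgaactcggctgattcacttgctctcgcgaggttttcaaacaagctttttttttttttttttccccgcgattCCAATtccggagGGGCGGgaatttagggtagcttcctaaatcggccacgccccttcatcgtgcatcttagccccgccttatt
Slc25a1: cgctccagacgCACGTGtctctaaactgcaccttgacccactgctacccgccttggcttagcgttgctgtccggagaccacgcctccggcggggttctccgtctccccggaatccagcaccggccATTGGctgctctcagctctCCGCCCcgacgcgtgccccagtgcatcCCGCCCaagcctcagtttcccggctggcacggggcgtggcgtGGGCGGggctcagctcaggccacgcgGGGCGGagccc

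The capitals in the *Slc25a3* window are 1 GC box (GGGCGG), the binding letters of SP factors. In the *Slc25a4* window they are a pair of CCAAT boxes (CCAAT), and no GC box is present. The *Slc25a11* window has 1 of each, and the *Slc25a1* window has 4 GC boxes, 1 CCAAT box on the reverse strand and 1 E-box (CACGTG), the letters read by MYC and USF factors. Motifs were searched on both strands, where CCGCCC and ATTGG are the reverse forms of the GC box and the CCAAT box. Of all windows of the family, 73.8% held a GC box, against 42.6% of 21263 windows of protein-coding genes, and 19% held an E-box, against 6.63%. A CCAAT box stood in 47.6% of the family's windows, against 35.4%, and a TATA box (TATAAA) in 2.38%, against 11.6%. Among the 13 windows of members that were called lower, 9 held a GC box, as did 22 of the 29 windows of the other members. The E-box was in 4 of the 13 windows and in 4 of the 29, and 2 of the 4 were overlapping windows of *Slc25a14* that hold the same site, so that 3 genes that fell had an E-box, *Slc25a1*, *Slc25a14* and *Slc25a36*. The core of the NRF1 site (GCATGCGC) was in 4.76% of family windows, against 2.93%, and the ETS core (CCGGAAGT) in 2.38%, against 3.79%. No window of the family held the YY1 core (AAGATGGCG), which 0.72% of all windows held, or the MEF2 site, which 0.466% held. A MEF2 site can hold the TATA letters, no other motif of the set contains another, and a match is a description of letters and not a bound site.

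With the arrays as deposited most carriers were lower without *Mef2c*, while centring each array on housekeeping genes, which moved the median of all genes to 0.83, gave 3 carriers lower and 10 higher by the same thresholds. Of all 17325 genes, 647 were lower and 7171 higher after that centring. A gene was said to fall or rise where its deposited value changed by a fold of at least 2 with an unadjusted limma p of at most 0.05. The study gives these thresholds for its pre-B arrays. It also excluded probe sets by detection calls, and no such filter was set here. Of the 43 members 12 fell, or 27.9%, where 16.7% of all genes fell, and 1 rose, or 2.33%, where 9.65% of all genes rose. The other 30 did not pass. Quantile normalization of the deposited values, and likewise cyclic loess, left 5 members that fell, and 4 of them were among the 12 each time, *Slc25a16*, *Slc25a20*, *Slc25a30* and *Slc25a32*. Of those 4, *Slc25a30* and *Slc25a32* were also among the 3 that fell after housekeeping centring, with *Slc25a4*. The log2 fold change (*Mef2c*-deficient minus control) was negative in 31 members and positive in 12, with a median of −0.93, where the median of all genes was 0.043. Both *Mef2c*-deficient arrays lay below all 3 control arrays in 18 members (41.9%), where this held for 28.4% of all genes. They lay above all 3 in 8 members (18.6%), where this held for 25.9% of all genes. By limma, 0 of the 43 members and 0 of all 17325 genes were under an adjusted p of 0.05, while 16 members had an unadjusted p of at most 0.05, as had 5593 genes. The smallest adjusted p of a member was 0.0897, and 6 members (*Slc25a1*, *Slc25a4*, *Slc25a14*, *Slc25a30*, *Slc25a32* and *Slc25a36*) were under 0.10, as were 2086 genes. In sorted cells read in bulk, fewer cells that carry a transcript and less of it in each cell cannot be told apart.

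**Figure D1:**
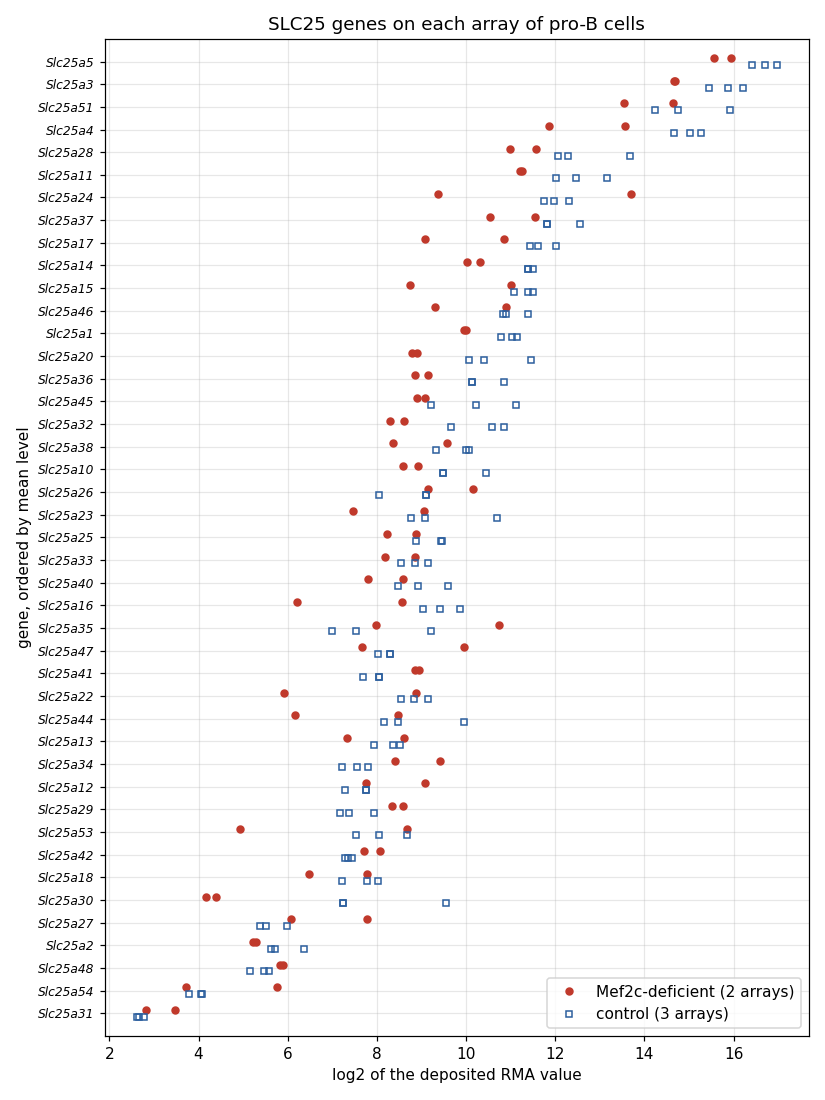
Log2 of the deposited value (horizontal axis) of each of the 43 carrier genes (rows, ordered by mean level) on the 2 *Mef2c*-deficient arrays (red circles) and the 3 control arrays (blue open squares), 1 point per array. In 18 genes both red points lie left of all 3 squares, and in 8 genes both lie right of them.

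The size of these folds depends on the scale of the file. The deposited values are linear, but they reach 2322600 and 314 to 430 values per array exceed 65535, the limit of a 16-bit scanner, so that they appear to be e raised to the log2 signal. Read so, 1.62-fold in signal corresponds to the threshold of 2 in the deposited value. At a fold of 2 in signal 6 members fell (*Slc25a4*, *Slc25a16*, *Slc25a17*, *Slc25a20*, *Slc25a30* and *Slc25a32*) and 0 rose, and the p-values do not depend on this reading. Log2 values and log2 fold changes below are of the deposited values, and folds in signal are named as such.

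The arrays differed in ways that bear on every member. The interquartile range of the log2 values was 4.04 and 4.21 on the *Mef2c*-deficient arrays, against 5.15, 5.10 and 5.58 on the control arrays. The median of 15 probe sets for bacterial hybridisation controls, added at a fixed amount, stood 1.97 above its mean over the arrays on *Mef2c*-deficient replicate 1 and 0.12 above it on replicate 2, against −0.43, −0.049 and −1.58 on control replicates 1, 2 and 3. The *Mef2c* probe set itself read 12.85 and 12.60 on the *Mef2c*-deficient arrays, against 13.77, 14.35 and 14.07 on the control arrays, and whether it lies in the deleted exon is not given. All 9 measured pro-B markers, *Cd79a*, *Igll1* and *Rag1* among them, were above the array median on all 5 arrays. Their deposited values summed to 1234000 and 658900 on the *Mef2c*-deficient arrays, against 1096000, 934500 and 1542000 on the control arrays. On *Mef2c*-deficient replicate 2 *Ebf1*, *Blnk* and *Cd24a* were the lowest of the 5 arrays, at 11.56, 11.38 and 17.22, while replicate 1 read 14.84, 14.61 and 19.38. On replicate 1 *Dntt*, *Igll1* and *Spn* were the lowest, at 11.575, 14.61 and 13.66, while replicate 2 read 15.12, 14.68 and 14.46. *Cd79a*, *Cd79b* and *Rag1* were lowest on control replicate 2. Summed over 11 T and NK cell markers the deposited values were 8428 and 65500 on the *Mef2c*-deficient arrays, against 15070, 13570 and 20320 on the control arrays, and the 5 plasmacytoid dendritic cell markers gave 11170 and 80070, against 36330, 36040 and 51470. The 4 erythroid markers summed to 1502 and 4625 on the *Mef2c*-deficient arrays, against 739, 795 and 872 on the control arrays, and the 8 neutrophil markers to 2384000 and 5108000, against 4133000, 4523000 and 2107000. For 7 macrophage markers the sums were 2672 and 7195, against 3825, 6817 and 4771, and for 4 plasma cell markers 99870 and 149400, against 259200, 134300 and 142100. The part of these differences in the results on the carriers was not tested. Leaving out a *Mef2c*-deficient array leaves 1 in that group. Without *Mef2c*-deficient replicate 1, *Slc25a24* stood at 1.69 and *Slc25a34* at 0.87, and the median of all genes was 0.045. Without replicate 2 the median of the members was −0.41, where that of all genes was −0.0086. Without control replicate 1, 2 or 3 there were 8, 8 and 9 that fell and 2, 2 and 0 that rose. Of all 17325 genes, 1938, 2163 and 2009 fell and 967, 1296 and 984 rose in these 3 fits.

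Changes followed the level of the gene, in the family as in the whole table. With all genes split by mean level into 10 groups, their median change on the log2 scale was 0.43 in the fifth group, −0.73 in the seventh, −1.10 in the ninth and −0.91 in the highest. The 24 members that lay above the array median on all 5 arrays included 10 of those that fell and 0 that rose. In the highest group 2 of 4 members fell, where 32.8% of its genes fell, in the ninth 1 of 4, where 40.9% fell, in the eighth 3 of 5, where 34.1% fell, and in the seventh 4 of 6, where 25.4% fell. In the sixth 1 of 9 members fell, where 15.6% of genes fell, and in the fifth 0 of 9, where 9.53% fell, both under the share of all genes. Of 43 members 29 lay below the median of their own level group, and the median of the member minus group differences was −0.27, where that of all genes was 0. Members farthest below their group were *Slc25a30* (−4.38), *Slc25a16* (−2.08), *Slc25a44* (−1.96), *Slc25a22* (−1.86), *Slc25a53* (−1.70) and *Slc25a4* (−1.36). *Slc25a1* (−0.0051) and *Slc25a5* (−0.036) lay at the median of theirs. Across the 43 genes the Pearson correlation of fold change with mean level was −0.40, and it was −0.53 across all genes, where genes of 1 set of arrays are not independent and share each array's scale.

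**Figure D2:**
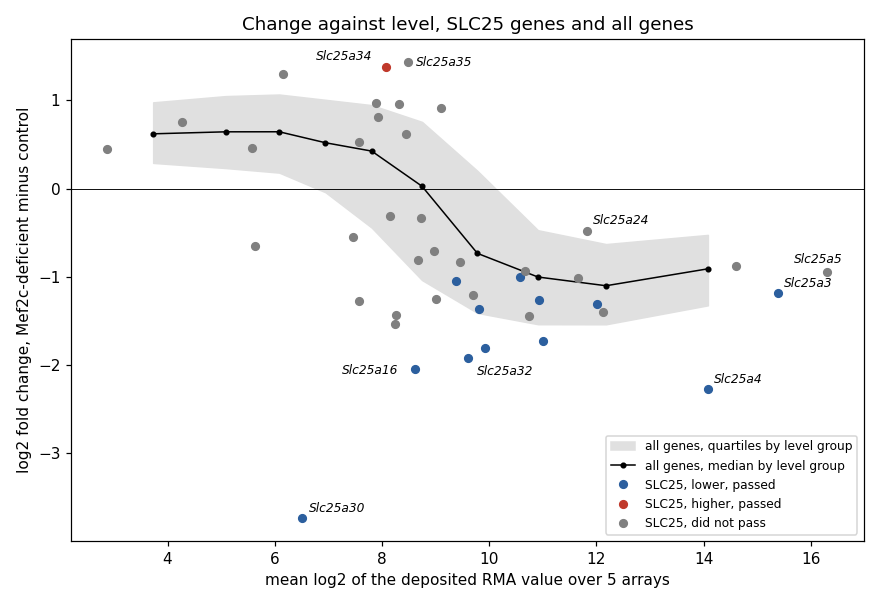
Log2 fold change, *Mef2c*-deficient minus control (vertical axis), of each carrier gene against its mean log2 deposited value over the 5 arrays (horizontal axis), with genes that fell in blue, the gene that rose in red and the rest in grey. The black line joins the medians of all genes in 10 level groups and the grey band spans their quartiles, and *Slc25a30*, *Slc25a16* and *Slc25a4* lie farthest below the line among those that fell.

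Of the 4 ADP/ATP and phosphate carriers, which serve the ATP synthase, 2 fell and 0 rose, with a median of −1.06. Both that fell lay in the highest level group, where 32.8% of all genes fell. Phosphate enters the matrix on the phosphate carrier *Slc25a3*, and ADP is exchanged for ATP by *Slc25a4* and *Slc25a5*, the forms known best from muscle and from dividing cells. On the *Mef2c*-deficient arrays *Slc25a3* read 14.68 and 14.66, against 15.88, 16.22 and 15.45 on the control arrays. The groups did not overlap, and *Slc25a3* fell by 1.18 on the log2 scale (limma standard error 0.32, adjusted p = 0.1035), a 1.76-fold difference in signal. For *Slc25a4* the readings were 13.57 and 11.85, against 15.02, 15.27 and 14.66 on the control arrays, so that both *Mef2c*-deficient arrays were lower and they differed from each other by 1.72. It fell by 2.27 (limma standard error 0.57, adjusted p = 0.0978), which is 2.98-fold in signal. *Slc25a5* read 15.93 and 15.56 on the *Mef2c*-deficient arrays, against 16.96, 16.70 and 16.40 on the control arrays. Its groups did not overlap either (log2 fold change −0.94, standard error 0.30, adjusted p = 0.12), but it missed the fold threshold. The probe sets of *Slc25a4* and *Slc25a5*, and likewise those of *Slc25a20*, *Slc25a25*, *Slc25a29* and *Slc25a47*, are of kinds that can hybridise with related transcripts. The 1 further ADP/ATP carrier, *Slc25a31*, known from the testis, was under the array median on all 5 arrays, at 3.47 and 2.83, against 2.63, 2.78 and 2.67. *Slc25a3* no longer passed without control replicate 2 (−0.995) or without either *Mef2c*-deficient array (−1.19 and −1.17), and *Slc25a5* passed without control replicate 3 (−1.09) or *Mef2c*-deficient replicate 1 (−1.13). The change of *Slc25a3* was −0.45 after quantile normalization, −0.26 after cyclic loess and −0.40 after housekeeping centring, and it passed under none of these. *Slc25a4* missed the threshold at −1.33 and −1.26 after the first pair.

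In the carriers that exchange ATP-Mg for phosphate, whose best known forms are switched by calcium, no member of 4 passed in either direction, with a median of −0.59. These genes lay in the sixth and ninth level groups, where 15.6% and 40.9% of all genes fell. *Slc25a24* split the *Mef2c*-deficient arrays, with 9.37 on replicate 1 and 13.70 on replicate 2, against 11.74, 12.31 and 11.98 on the control arrays. This gave −0.48 with a standard error of 1.28, and 1.69 without *Mef2c*-deficient replicate 1 and −2.64 without replicate 2. *Slc25a23* read 7.45 and 9.05 on the *Mef2c*-deficient arrays, against 8.76, 9.08 and 10.68 (log2 fold change −1.25, adjusted p = 0.277). *Slc25a25* read 8.88 and 8.22, against 9.47, 8.87 and 9.44 (−0.71, adjusted p = 0.217), and in both genes the groups overlapped. *Slc25a41* read 8.94 and 8.84, above the controls at 8.06, 8.05 and 7.69 (0.96, standard error 0.26, adjusted p = 0.104), just short of the fold threshold. After quantile normalization (1.08) and housekeeping centring (1.745) it passed as higher. It passed as higher when control replicate 1 or 2 was left out (1.02 in both cases), or *Mef2c*-deficient replicate 2 (1.01).

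Of 7 carriers of citrate, dicarboxylates, aspartate and glutamate 3 fell and 4 did not pass, with a median of −1.01. Those that fell lay in the seventh, eighth and ninth level groups, where 25.4%, 34.1% and 40.9% of all genes fell. *Slc25a1* brings citrate to the cytosol, where it feeds the synthesis of fatty acids and sterols. It read 9.96 and 10.001 on the *Mef2c*-deficient arrays, against 11.04, 10.79 and 11.13 on the control arrays. The arrays of each group lay close together, and *Slc25a1* fell by 1.01 (limma standard error 0.25, adjusted p = 0.0967), at the edge of the fold threshold. *Slc25a11*, which exchanges oxoglutarate for malate in the malate-aspartate shuttle, read 11.26 and 11.20, against 12.46, 12.02 and 13.15, and fell by 1.31 (standard error 0.40, adjusted p = 0.115). *Slc25a10*, the dicarboxylate carrier, read 8.93 and 8.58, against 10.44, 9.48 and 9.48, and fell by 1.04 (standard error 0.40, adjusted p = 0.153). Both had groups that did not overlap. The aspartate-glutamate carriers of the same shuttle did not pass. *Slc25a12* read 9.07 and 7.76 on the *Mef2c*-deficient arrays, against 7.76, 7.76 and 7.27 (0.82, adjusted p = 0.251). For *Slc25a13* the values were 8.60 and 7.33, against 8.53, 8.36 and 7.94 (−0.31, adjusted p = 0.615). In both genes the groups overlapped or touched. The glutamate carriers *Slc25a18* (−0.54, adjusted p = 0.419) and *Slc25a22* (−1.44, adjusted p = 0.277) did not pass. The call of *Slc25a1* was lost without control replicate 1 (−0.98) or 3 (−0.93) and without *Mef2c*-deficient replicate 1 (−0.98), that of *Slc25a11* without control replicate 1 (−1.35) or either *Mef2c*-deficient array (−1.34 and −1.28), and that of *Slc25a10* without any of the 5 arrays (−1.22 to −0.73). After quantile normalization or cyclic loess 0 of the 7 fell. *Slc25a1* stood at −0.26 and −0.23 there, *Slc25a11* at −0.38 and −0.30 and *Slc25a10* at −0.73 and −0.68, and housekeeping centring gave −0.22, −0.53 and −0.26 for these 3 genes, none of which passed. With *Mef2c*-deficient replicate 2 left out *Slc25a12* passed as higher (1.47), *Slc25a13* stood at 0.33 and *Slc25a18* at 0.11.

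Among 8 carriers of carnitine and amino acids 1 fell and 7 did not pass, with a median of −0.93. The 1 that fell lay in the seventh level group, where 25.4% of all genes fell. The gene that fell was *Slc25a20*, which carries acylcarnitines into the matrix for the oxidation of fatty acids. It read 8.78 and 8.89 on the *Mef2c*-deficient arrays, against 10.07, 10.41 and 11.46 on the control arrays. The groups did not overlap, and *Slc25a20* fell by 1.81 (limma standard error 0.48, adjusted p = 0.1015), a 2.38-fold difference in signal. Its call was lost without *Mef2c*-deficient replicate 1 (−1.76) or replicate 2 (−1.86), and after housekeeping centring (−1.02). The ornithine carrier *Slc25a15* read 8.73 and 11.001, against 11.38, 11.07 and 11.50, and did not pass (−1.45, adjusted p = 0.21), but did without *Mef2c*-deficient replicate 2 (−2.58). *Slc25a44*, a carrier of branched-chain amino acids, had −1.54 (adjusted p = 0.255), and *Slc25a45* had −1.20 (adjusted p = 0.217) and passed without control replicate 1 (−1.69). *Slc25a29*, a carrier of basic amino acids, read 8.58 and 8.34, above the controls at 7.37, 7.93 and 7.18 (0.97, standard error 0.33, adjusted p = 0.128), and passed as higher without control replicate 2 (1.19). *Slc25a47* had 0.61 (adjusted p = 0.513), with 9.96 and 7.67, against 8.29, 8.29 and 8.01, and without *Mef2c*-deficient replicate 2 it passed at 1.76 while without replicate 1 it stood at −0.53. *Slc25a2*, a second ornithine carrier, and *Slc25a48* were under the array median on all 5 arrays and did not pass (−0.65 and 0.46). After quantile normalization and cyclic loess *Slc25a2* passed as lower (−1.17 and −1.25). *Slc25a48* passed as higher with the mean of its probe sets (1.04) and after housekeeping centring (1.25).

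Of 8 carriers of cofactors and nucleotides 4 fell and 0 rose, with a median of −1.12. Those that fell lay in the sixth, seventh and eighth level groups, where 15.6%, 25.4% and 34.1% of all genes fell. *Slc25a32* brings folate into mitochondria and is also tied to FAD. It read 8.60 and 8.28 on the *Mef2c*-deficient arrays, against 10.58, 9.67 and 10.86 on the control arrays. The groups stood well apart, and *Slc25a32* fell by 1.93 (limma standard error 0.43, adjusted p = 0.0938), which is 2.52-fold in signal. *Slc25a36*, a carrier of pyrimidine nucleotides, read 8.86 and 9.15, against 10.12, 10.12 and 10.84, and fell by 1.36 (standard error 0.34, adjusted p = 0.097). The second pyrimidine carrier, *Slc25a33*, read 8.85 and 8.19, against 9.15, 8.55 and 8.85, and did not pass (−0.33, interval −1.21 to 0.55). *Slc25a17* is set apart from the family by its place in the peroxisome, where it carries coenzyme A, FAD and NAD. It read 10.86 and 9.07, against 12.02, 11.61 and 11.44, and fell by 1.72 (standard error 0.59, adjusted p = 0.13). *Slc25a16*, linked to the transport of coenzyme A, read 8.56 and 6.21, against 9.04, 9.41 and 9.85, and fell by 2.05 (standard error 0.75, adjusted p = 0.144). In both of these genes replicate 2 was the lower of the *Mef2c*-deficient arrays, and without it the values were −0.83 and −0.87 and neither passed. *Slc25a42*, a further carrier of coenzyme A, read 8.07 and 7.70, above the controls at 7.45, 7.28 and 7.35, and did not pass (0.53, adjusted p = 0.209). *Slc25a26*, which imports S-adenosylmethionine, read 10.16 and 9.15, against 9.09, 9.09 and 8.04, and did not pass either (0.91, adjusted p = 0.244). After quantile normalization (1.30) and housekeeping centring (1.70) *Slc25a26* passed as higher, and *Slc25a42* did after the latter (1.31). The NAD carrier *Slc25a51* read 14.63 and 13.54, against 14.75, 14.23 and 15.91, with overlapping groups (−0.88, adjusted p = 0.324). *Slc25a16* also missed the threshold without control replicate 1 (−2.25), 2 (−2.06) or 3 (−1.84), *Slc25a17* without control replicate 1 (−1.56), 2 (−1.76) or 3 (−1.85), *Slc25a32* without *Mef2c*-deficient replicate 2 (−1.77) and *Slc25a36* without *Mef2c*-deficient replicate 1 (−1.22). *Slc25a17* (−0.91, −0.85 and −0.94) and *Slc25a36* (−0.90, −0.82 and −0.58) did not pass after quantile normalization, cyclic loess or housekeeping centring, and *Slc25a16* did not after the last (−1.26).

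None of the 4 carriers for iron, haem and glutathione passed, and all 4 had negative fold changes, with a median of −0.92. They lay in the sixth, seventh and ninth level groups, where 15.6%, 25.4% and 40.9% of all genes fell. The mitoferrins *Slc25a28* and *Slc25a37* import iron for iron-sulfur clusters and haem. *Slc25a28*, the form of most tissues, read 11.58 and 10.98, against 12.07, 13.69 and 12.28 (−1.40, standard error 0.58, adjusted p = 0.17). *Slc25a37*, the form known from red cell precursors, read 10.53 and 11.56, against 11.82, 11.82 and 12.55 (−1.02, standard error 0.44, adjusted p = 0.181). Both were below every control array on both *Mef2c*-deficient arrays. *Slc25a37* was higher on replicate 2 of that pair. The erythroid markers summed to 4625 on that array, 1502 on replicate 1 and 739 to 872 on the control arrays. Among them *Alas2* and *Slc4a1* were higher on replicate 2 than on replicate 1, *Klf1* was equal (6.67) and *Epor* was lower (7.08 against 7.37). A link of these markers to *Slc25a37* was not tested. *Slc25a38*, which supplies glycine to haem synthesis, read 9.56 and 8.36, against 10.06, 9.996 and 9.32 (−0.83, adjusted p = 0.25), and *Slc25a40*, a glutathione carrier, had −0.81 (adjusted p = 0.246). *Slc25a37* passed without *Mef2c*-deficient replicate 2 (−1.53), and without replicate 1 *Slc25a38* passed (−1.43).

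Of 3 carriers that resemble the uncoupling proteins 2 fell. *Slc25a30* lay in the third level group and *Slc25a14* in the eighth, where 2.31% and 34.1% of all genes fell. *Slc25a30* read 4.39 and 4.16 on the *Mef2c*-deficient arrays, against 7.24, 7.24 and 9.54 on the control arrays. The groups stood apart, with control replicate 3 far above the other controls, and *Slc25a30* fell by 3.74 (limma standard error 0.80, adjusted p = 0.0908). It was under the array median on every array but control replicate 3, so the size of this change is not reliable, and it stood at −2.97 without that array. The gene is not tested where dim genes are left out. It no longer passed without *Mef2c*-deficient replicate 1 (−3.85) or 2 (−3.62). *Slc25a14*, known also as an uncoupling protein of brain, read 10.03 and 10.31, against 11.40, 11.51 and 11.40, and fell by 1.26 (limma standard error 0.24, adjusted p = 0.0897), the smallest adjusted p of the family. Its call held without each of the 5 arrays in turn, but it did not pass where a 2-fold difference in signal was required, and was lost after quantile normalization (−0.48), cyclic loess (−0.41) or housekeeping centring (−0.48). *Slc25a27*, a brain form, was under the array median on all 5 arrays, at 7.78 and 6.08, against 5.38, 5.51 and 5.98 (1.30, adjusted p = 0.181), and passed as higher without *Mef2c*-deficient replicate 2 (2.15).

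*Slc25a34*, a carrier without a settled substrate, was the 1 member that rose. Its level group was the fifth, where 14.8% of all genes rose. It read 9.41 and 8.40 on the *Mef2c*-deficient arrays, against 7.80, 7.56 and 7.23 on the control arrays. Every *Mef2c*-deficient value was above every control value, with a log2 fold change of 1.38 (limma standard error 0.40, adjusted p = 0.1110), or 1.94-fold in signal. It did not pass without control replicate 2 (1.39) or 3 (1.23), nor without *Mef2c*-deficient replicate 1 (0.87). Its close relative *Slc25a35* read 7.97 and 10.73, against 6.99, 7.54 and 9.21, with groups that overlapped (1.44, standard error 1.06, adjusted p = 0.334). *Slc25a46*, which sits in the outer membrane and is tied to the shape of mitochondria, read 9.31 and 10.88, against 10.88, 10.83 and 11.38 (−0.93, adjusted p = 0.251), and passed without *Mef2c*-deficient replicate 2 (−1.72). The orphan carriers *Slc25a53* and *Slc25a54* had −1.28 and 0.76 and did not pass. Without *Mef2c*-deficient replicate 1 they stood at −3.15, where *Slc25a53* passed as lower, and −0.26, and without replicate 2 at 0.60 and 1.78, where *Slc25a54* passed as higher.

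**Figure D3:**
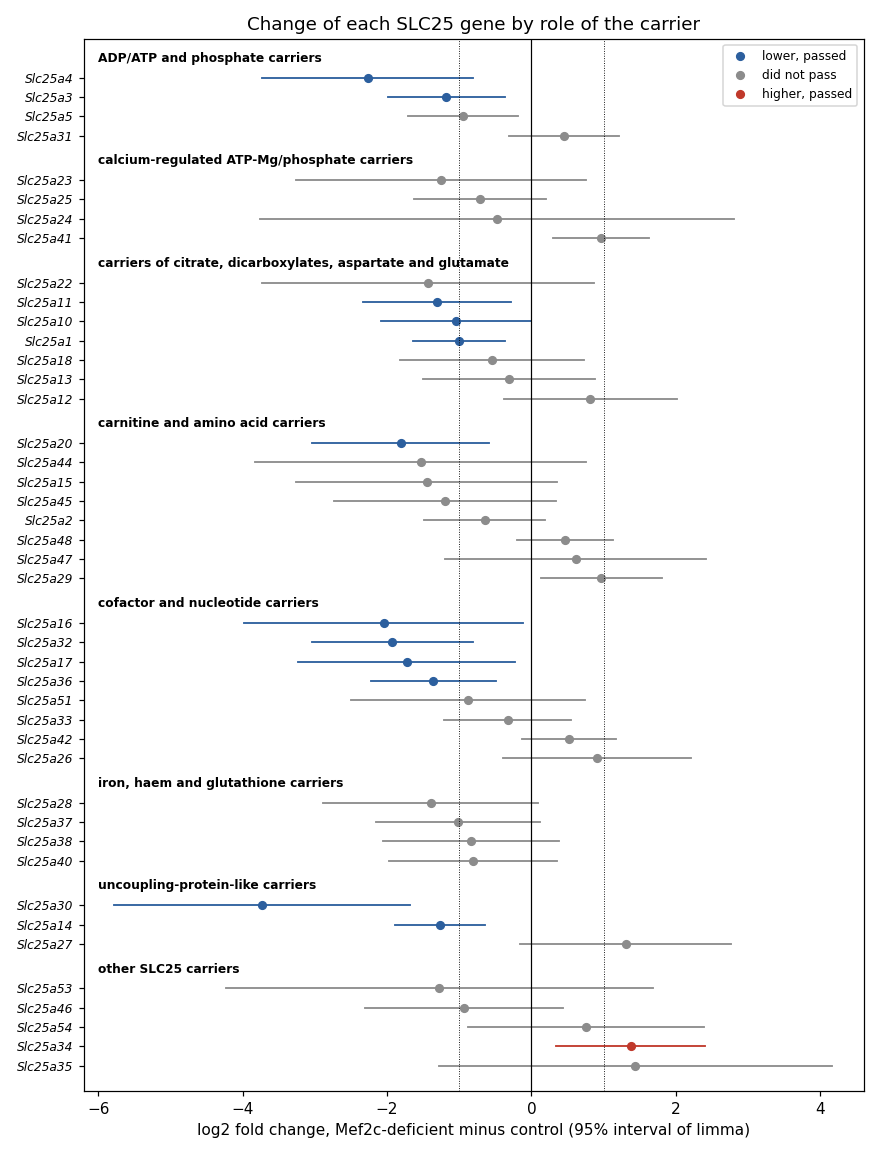
Log2 fold change, *Mef2c*-deficient minus control (horizontal axis), of each carrier gene with its 95% interval from limma, grouped by the role of the carrier. Blue marks the 12 genes that fell, red the 1 that rose and grey the 30 that did not pass, and dotted lines stand at a fold of 2 in either direction.

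Several carriers differed more between the *Mef2c*-deficient arrays than between the groups. The gap between those arrays was 4.33 on the log2 scale for *Slc25a24*, 3.75 for *Slc25a53*, 2.96 for *Slc25a22*, 2.76 for *Slc25a35*, 2.35 for *Slc25a16*, 2.31 for *Slc25a44*, 2.29 for *Slc25a47* and 2.27 for *Slc25a15*. Of these 8 genes *Slc25a24*, *Slc25a35* and *Slc25a15* were higher on replicate 2 and the other 5 higher on replicate 1. *Slc25a22* read 8.89 and 5.93 on the *Mef2c*-deficient arrays, against 9.14, 8.84 and 8.55 on the control arrays, so that replicate 1 lay among the controls, and without replicate 1 it passed at −2.92 while without replicate 2 it stood at 0.045. *Slc25a53* read 8.68 and 4.93, against 7.53, 8.05 and 8.68, and *Slc25a44* 8.48 and 6.17, against 8.48, 8.15 and 9.95. In each of these 3 genes replicate 2 alone was below the controls. T and NK cell markers summed to 65500 on that array and to 8428 on replicate 1, against 13570 to 20320 on the control arrays, though *Cd4* was lower there than on replicate 1 (8.48 against 10.44). The sums of the plasmacytoid dendritic, erythroid, neutrophil, macrophage and plasma cell markers were also higher on replicate 2 than on replicate 1, and the pro-B sum was lower. Not every marker followed its sum. *C1qa*, *Adgre1* and *Vcam1* of the macrophage list, *Sdc1* and *Prdm1* of the plasma cell list and *Epor* were lower on replicate 2, and *Klf1* was equal. Of the pro-B markers *Cd79a*, *Igll1*, *Dntt* and *Spn* were higher on replicate 2, and *Cd79b*, *Ebf1*, *Rag1*, *Cd24a* and *Blnk* were lower. The part of any of these markers in the splits was not tested. *Slc25a16* was the 1 gene of the 8 that passed.

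**Figure D4:**
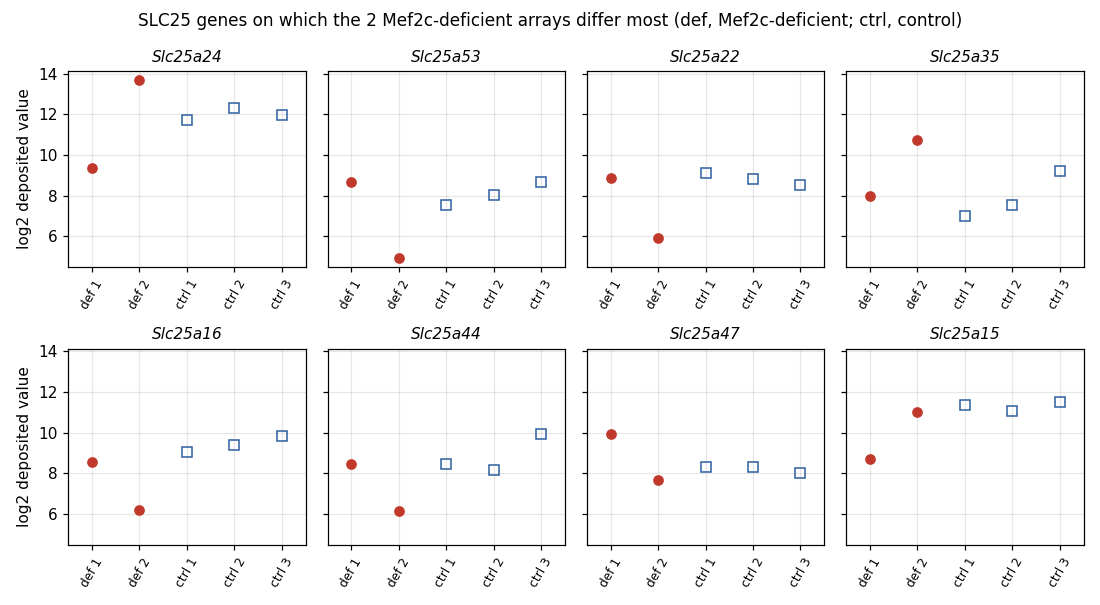
Log2 of the deposited value (vertical axis) on each array for the 8 carrier genes with the widest gap between the *Mef2c*-deficient arrays, with *Mef2c*-deficient replicates 1 and 2 as red circles and control replicates 1 to 3 as blue open squares. For *Slc25a24* the red points lie on either side of the squares, and for *Slc25a22* only replicate 2 lies apart from them.

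Genes that work with the carriers were read from lists beside the family. Carriers cross the outer membrane through the TOM complex and are inserted by TIM22, to which the small TIM proteins hand them. Of 9 measured genes of that insertion route 4 fell and 0 rose, and of 5 TOM genes 3 fell and 0 rose. The lists had median levels of 11.54 and 14.18, and 32.8% to 40.9% of all genes fell in the 3 highest level groups. After quantile normalization or cyclic loess 1 of 9 and 1 of 5 fell, and after housekeeping centring 2 of 9 and 1 of 5. *Timm10*, a small TIM chaperone, read 9.56 and 9.20 on the *Mef2c*-deficient arrays, against 13.24, 12.81 and 12.29 on the control arrays. It fell by 3.40 (standard error 0.37), a 5.12-fold difference in signal, with every *Mef2c*-deficient value far under every control value. *Timm8a1* (−1.81), *Timm22*, the channel itself (−1.57), and *Timm29* (−1.81) fell as well, as did *Tomm70a*, the receptor that carriers meet first (−2.06), *Tomm20* (−1.25) and *Tomm22* (−1.12). Without control replicate 3 the counts were 7 of 9 and 4 of 5, and without *Mef2c*-deficient replicate 2 they were 3 of 9 and 1 of 5. Without control replicate 1 or 2 the TOM count was 2 of 5.

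Enzymes that make or use the carried metabolites were mixed. Of 7 enzymes of the malate-aspartate and citrate shuttles 3 fell, *Got1* (−1.39), *Mdh2* (−1.26) and *Mdh1* (−1.36), which interconvert malate, oxaloacetate and aspartate on both sides of the membrane. The list's median level was 12.65, nearest to the ninth level group, where 40.9% of all genes fell, and 0 of the 7 fell after quantile normalization, cyclic loess or housekeeping centring. Of 7 carnitine shuttle genes 2 fell, *Cpt1a* (−1.24) and *Cpt2* (−1.45), the acyltransferases on either side of *Slc25a20*. This is a smaller share than the 34.1% and 40.9% of all genes in the eighth and ninth level groups, between whose medians the list lies, and the genes stood a median of 0.38 above their own level groups. After either normalization 0 of the 7 fell and 1 rose, and after housekeeping centring 0 fell and 2 rose. Of 6 genes of mitochondrial one-carbon metabolism and thiamine enzymes 4 fell and 1 rose. The list's median level was 12.14, nearest to the ninth level group, where 40.9% of all genes fell. *Shmt2*, which takes a one-carbon unit from serine in the matrix, read 11.54 and 11.42 on the *Mef2c*-deficient arrays, against 14.02, 14.06 and 13.10, and fell by 2.25 (standard error 0.39). *Mthfd1l*, which releases formate from the same folate route, read 12.31 and 9.76, against 14.49, 14.26 and 13.14, and fell by 2.93 (standard error 0.87), and is named after its values were seen. The groups did not overlap in either gene. *Pdha1* (−1.65) and *Mthfd2l* (−1.27) fell, and *Dld*, a subunit shared by dehydrogenases of the matrix, rose (1.51). Both *Mthfd2l* and *Dld* were under the array median on all 5 arrays, where levels are not reliable, and with dim genes left out 3 of 4 genes of the list fell and 0 rose. After quantile normalization, cyclic loess or housekeeping centring 2 of the 6 fell, and 1 rose after the last. Of 4 outer membrane porins and pyruvate carrier genes 0 fell and 1 rose, the porin *Vdac1*, at 9.86 and 8.97, against 8.26, 8.32 and 7.86 (1.27). *Vdac2* (−0.82), *Vdac3* (−0.65) and *Mpc1* (−0.75) were lower and did not pass. *Vdac1*, at a mean level of 8.65, lay near the sixth level group, where 8.89% of all genes rose. The list's median level was 13.32, nearest to the highest level group, where 32.8% fell. Of 3 genes of the calcium uniporter 1 fell, the channel *Mcu* (−1.32), but 0 fell without any single control array or without *Mef2c*-deficient replicate 2 or after housekeeping centring, and 2 fell without replicate 1. The uniporter list had a median level of 13.96, near that of the highest level group, where 32.8% of all genes fell. *Mcu* itself, at 8.04, lay near the fifth group, where 9.53% fell. Members of the family named otherwise gave 2 that fell, *Mtch2* (−2.12) and *Mtch1* (−1.38), both of the outer membrane, and 1 that rose, the uncoupling protein *Ucp3* (1.23), of 4 measured. Their median level was 9.39, nearest to the seventh level group, where 25.4% of all genes fell and 4.62% rose. *Ucp3* was under the array median on all 5 arrays, and with dim genes left out 0 of these genes rose. After either normalization 1 of the 4 fell and 0 rose, and after housekeeping centring 1 fell and 2 rose. With each array left out in turn 2 to 3 shuttle enzymes, 2 to 3 carnitine shuttle genes, 3 to 5 one-carbon and thiamine genes and 1 to 2 of these last family members fell. The count of porin and pyruvate carrier genes that rose was 0 without control replicate 1 or 3 and without *Mef2c*-deficient replicate 1, and 1 of them fell without control replicate 3 or *Mef2c*-deficient replicate 2.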

How the data were processed

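Biotin-labelled RNA of sorted pro-B cells was hybridised to 5 Affymetrix mouse arrays. The authors describe the intensity values as made by robust multiarray averaging (RMA), which corrects background, quantile normalizes and summarizes probes, and used limma. Quantile normalized arrays share a distribution, but the deposited values differ in interquartile range between the arrays, as given above. The reason for this was not tested. Their versions are not given in the sources used here. Symbols came from GEO's platform annotation, where 17623 probe sets had 1 symbol, 516 several and 5696 none, and several were not used. All 43 Entrez IDs keep their symbol in RefSeq. Log2 of the deposited values was fitted by lmFit and eBayes in limma 3.58.1 (R 4.3.3) on 1 probe set for each of 17325 genes, with 3 residual degrees of freedom, p-values two-sided and Benjamini-Hochberg adjustment over all genes. No filter on low values was set, so every member entered the fit. The fit was tested on simulated data. Members called, the 5 with the highest means and those fixed by role were described on every array, and the rest by their values. The members and lists were chosen with earlier results of these data known. *Slc25a21*, *Slc25a39*, *Slc25a43* and *Slc25a52* were not analysed here. Scan dates were not used here. Alternatives were other scalings, array weights, a filter on dim genes, the mean of probe sets, a fold in signal, a replicate block and each array left out.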

Additional observations from a re-analysis of the deposited data

How the results depend on the processing

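The count of carriers that fell (12), the count that rose (1) and their median log2 fold change (−0.93) moved with the scaling of the arrays. Quantile normalization of the deposited values gave 5, 3 and −0.44, and cyclic loess gave 5, 1 and −0.37. *Slc25a2* was among those that fell in both, and *Slc25a26* and *Slc25a41* rose with *Slc25a34* in the first. Centring on 10 measured housekeeping genes gave 3, 10 and −0.15, and it shifted the median of all genes to 0.83, so that the members lay below it. Those that rose there were *Slc25a12*, *Slc25a26*, *Slc25a27*, *Slc25a29*, *Slc25a31*, *Slc25a34*, *Slc25a41*, *Slc25a42*, *Slc25a48* and *Slc25a54*. Centring on array medians gave 13 and 2. Array weights gave 7 and 2, the mean of all probe sets 12 and 2, and a fold of 2 in signal 6 and 0. The member that passed only with the mean of its probe sets was *Slc25a48* (1.04, against 0.46 from its brightest probe set). Of all genes 2897 fell and 1671 rose, against 1356 and 1548 after quantile normalization, 1375 and 1236 after cyclic loess, 3199 and 1919 after median centring, 647 and 7171 after housekeeping centring, 2085 and 1028 with array weights, 1835 and 752 at a fold of 2 in signal, 2706 and 427 of 9786 genes without dim genes, and 1941 and 715 with the replicate number as a block. Without dim genes 10 of 34 members fell. With the replicate block 7 members fell, but the labels give these numbers no meaning as pairs, and the deviations of same-numbered arrays correlated at 0.12 and −0.012. Leaving out each control array in turn gave 8 to 9 that fell and 0 to 2 that rose. Of all genes 1938 to 2163 fell and 967 to 1296 rose in those fits. With any 1 array of either group left out, the median of the members ran from −1.04 to −0.41. Without *Mef2c*-deficient replicate 1, 1680 genes and 5 members had an adjusted limma p under 0.05, and without replicate 2, 1894 genes and 5 members, where the lone array was taken to vary like the controls. Of the 13 members that passed none changed sign. Those that changed sign were *Slc25a24* (0.20) and *Slc25a48* (−0.021) after quantile normalization, *Slc25a24* (0.52), *Slc25a31* (−0.16), *Slc25a48* (−0.13) and *Slc25a51* (0.10) after cyclic loess, and *Slc25a13* (0.47), *Slc25a18* (0.24), *Slc25a2* (0.14), *Slc25a24* (0.31), *Slc25a25* (0.073) and *Slc25a33* (0.46) after housekeeping centring. With each array left out in turn, the values that changed sign ran from −0.95 to 0.33 for *Slc25a13*, −1.19 to 0.11 for *Slc25a18*, −2.92 to 0.045 for *Slc25a22*, −2.64 to 1.69 for *Slc25a24*, −0.66 to 0.0033 for *Slc25a33*, −0.53 to 1.76 for *Slc25a47*, −3.15 to 0.60 for *Slc25a53* and −0.26 to 1.78 for *Slc25a54*, each between the fits without one and without the other *Mef2c*-deficient array. *Slc25a4* and *Slc25a32* were called in 12 of 14 alternatives and *Slc25a10* in 2, where the mean of probe sets could not change the fold change of any of them. The cause of these shifts was not tested. With 2 arrays against 3, and no detection calls, members under the array median have no reliable level.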

Other observations

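Of 10 regulators of mitochondrial genes 5 fell in *Mef2c*-deficient cells and 0 rose. Their median level was 11.36, between the medians of the level groups where 34.1% and 40.9% of all genes fell. After quantile normalization or cyclic loess 3 of the 10 fell, and after housekeeping centring 2. *Tfam*, which packages and transcribes mitochondrial DNA, read 10.77 and 10.61 on the *Mef2c*-deficient arrays, against 12.72, 12.45 and 13.18 on the control arrays (log2 fold change −2.09, standard error 0.31). *Myc*, a driver of growth genes, read 12.50 and 12.91, against 15.62, 15.33 and 14.44 (−2.43, standard error 0.44). The coactivator *Pprc1* read 9.34 and 11.35, against 12.61, 12.61 and 12.54 (−2.24), and *Nrf1* (−1.50) and *Gabpa* (−1.54, named after its values were seen) fell too. Leaving out *Mef2c*-deficient replicate 1 the count was 6, and without *Mef2c*-deficient replicate 2, control replicate 1 or control replicate 3 it was 3.

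Of 10 genes for iron-sulfur clusters and haem 5 fell and 0 rose. Their median level was 10.67, near that of the level group where 34.1% of all genes fell, and they stood a median of −0.18 from their own level groups. After quantile normalization, cyclic loess or housekeeping centring 2 of the 10 fell, and 1 rose after the last. *Fech*, which inserts iron into haem, read 7.496 and 6.86 on the *Mef2c*-deficient arrays, against 9.71, 9.09 and 10.17 on the control arrays (−2.47, standard error 0.43), and *Glrx5* read 11.59 and 10.64, against 14.00, 12.74 and 13.52 (−2.31, standard error 0.51). *Iscu*, the scaffold of the clusters, fell by 1.35, *Alas1*, the first enzyme of haem synthesis outside red cells, by 1.16 and *Lyrm4*, named after its values were seen, by 1.16. Of 10 measured housekeeping genes 5 fell (*Gusb*, *Sdha*, *Pgk1*, *Hprt* and, named after its values were seen, *Tbp*), with a median of −0.98 over the list. The list's median level was 16.3, nearest to the highest level group, where 32.8% of all genes fell.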
